A study of Mus musculus with 10 samples.

Results

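Kinesin and dynein genes were examined in dorsal root ganglia of C57BL/6 mice after oxaliplatin, a platinum drug given against colorectal cancer that damages sensory nerves. The 5 oxaliplatin libraries came from mice given 10 mg/kg, and the 5 vehicle libraries from mice given vehicle alone. Treatment lasted 8 weeks per the series' design text. The sources used here give no dosing schedule, age or sex. The ganglia hold the cell bodies of sensory neurons together with satellite glia, Schwann cells, vessels and connective tissue. In such bulk RNA, fewer cells of a type and less RNA per cell cannot be told apart. Libraries carry numbers within a group, but the labels do not tie each to its own animal; every p-value below therefore reflects only how far these libraries differed among themselves.

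Members were the protein-coding genes whose symbols begin with Kif and a digit, Klc and a digit, Dync1, Dync2, Dynll, Dynlr or Dynlt, with 1 row for each Ensembl identifier. They numbered 59 of the 40481 genes in the table: 38 kinesin heavy chains, 4 kinesin light chains, 16 dynein subunits and Kif1bp. Kif1bp encodes a KIF1-binding protein and no motor, and was caught by its symbol alone. Genes that the symbol rule leaves out include the Kifc kinesins, the mitotic kinesin Cenpe and Kifap3, the kinesin-associated protein that joins the kinesin-2 complex. Motor genes took 0.691% to 0.785% of the counts of a library.

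Kinesins and dynein are motors that hydrolyse ATP to walk along microtubules. In an axon, whose microtubules point their plus ends away from the cell body, most kinesins carry vesicles, mitochondria and cytoskeletal proteins outward, and cytoplasmic dynein carries endosomes, signals and worn organelles back. The long axons of sensory neurons depend on this traffic, which is studied in chemotherapy-induced neuropathy because several of the drugs that cause it bind microtubules. Oxaliplatin binds DNA instead. A separate group of kinesins builds and separates the mitotic spindle and serves dividing cells, and further kinesins and dynein-2 work in cilia.

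Libraries held between 52963470 and 60984426 counted reads. Counts were compared with edgeR's quasi-likelihood test, and a gene was called when its p, adjusted by the Benjamini-Hochberg method over all 18401 genes with enough reads, was below 0.05. Over all those genes 234 were higher (1.27%) and 142 lower (0.772%) after oxaliplatin. The median log2 fold change over all genes was 0.01, and the biological coefficient of variation was 19.3%. Levels are CPM, each gene's count scaled to the size of its library. Oxaliplatin library 1 stood apart from the other oxaliplatin libraries in adipocyte and skeletal muscle markers. Adipocyte markers summed to 1141 CPM in it and to 27.2 to 76.6 CPM in the other 4 oxaliplatin libraries, against 26.4 to 77.7 CPM after vehicle. Skeletal muscle markers summed to 775 CPM in it and to 11.7 to 27.9 CPM in the other 4, against 103 to 514 CPM after vehicle. Those other 4 thus lay below every vehicle library in muscle markers. Red blood cell markers summed to 181 CPM in library 1 and to 9.54 to 693 CPM in the other 4, against 137 to 439 CPM after vehicle. Every fold change is given as log2 of oxaliplatin over vehicle, with its standard error (SE).

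Of the 59 motor genes, 54 had enough reads for the test, and none was called in either direction by edgeR, against 2.04% of all genes called in either direction. At an unadjusted p below 0.05 there were 7 of the 54, or 13.0%, where all genes gave 16.3%. These were Kif23, Kif26b and Kif9, with higher means after oxaliplatin, and Dynll1, Dync1i1, Dynlrb1 and Kif27, with lower means. DESeq2 called 1 motor gene, the dynein light chain gene Dynll1, as lower, and so did limma voom, run with a quality weight for each library. That is 1 of 51 motor genes (1.96%) with DESeq2, beside 2.4% of all genes called lower by it, and 1 of 54 (1.85%) with limma voom, beside 1.98%. The CPM of the groups did not overlap for 2 of the 54 (3.7%), Kif1c and Kif23, both with the higher values after oxaliplatin. Over all genes 4.02% had such groups, 2.25% with the higher and 1.77% with the lower values after oxaliplatin. Fold changes lay above 0 for 24 motor genes and below 0 for 30. Their median was -0.04, and they ran from -1.33 for Kif27 to 1.14 for Kif4, both genes with under 40 counts in any library.

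For well-covered motor genes the intervals were narrow enough to bound a change. Among the 16 members with a mean of at least 100 CPM, fold changes lay between -0.33 and 0.19, with SE between 0.05 and 0.16, and for 15 of them the 95% interval lay inside 0.5 log2 units either side of 0, the exception being Dynll1. Over all 54 members tested this held for 31. At a bound of 0.25 log2 units it held for 9 of the 16 and 10 of the 54. Most of the remainder were weakly expressed genes, whose wide intervals leave larger changes possible in either direction.

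**Figure D1:**
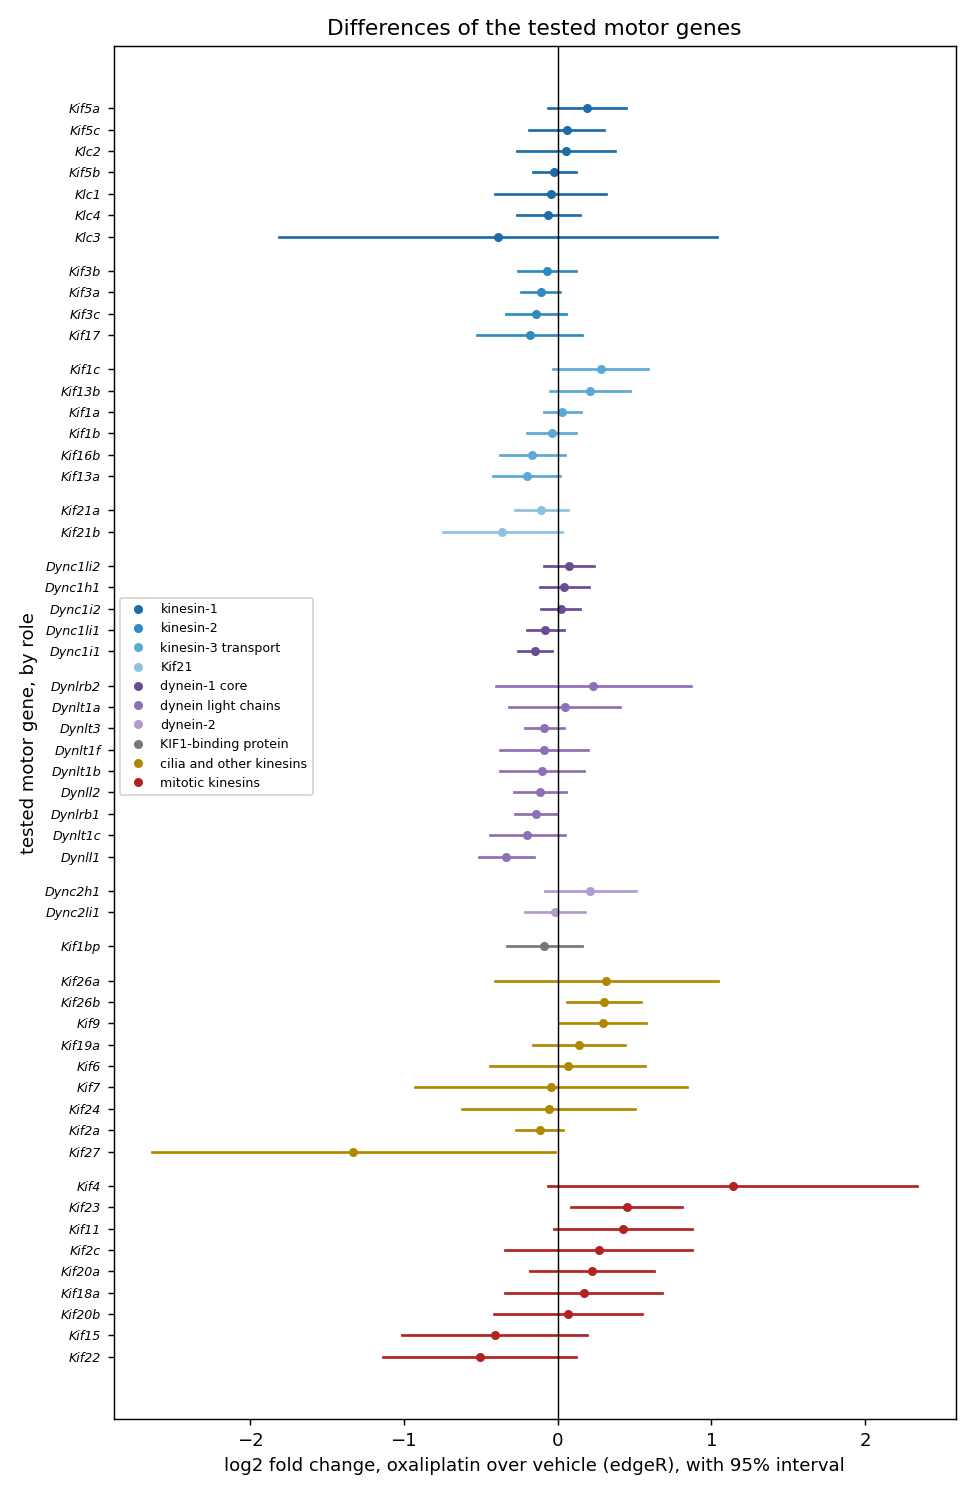
Log2 fold change (x axis, oxaliplatin over vehicle) of the 54 motor genes tested, grouped by role, with the 95% interval of the edgeR fit as a line. Points of the well-covered transport kinesins and dynein subunits sit near 0 with short lines, and the long lines belong to weakly expressed genes such as Kif4 (1.14) and Kif27 (-1.33).

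To compare levels between genes, CPM was divided by the length in kilobases of the principal transcript in the GENCODE M21 annotation. Dynein light and intermediate chains and kinesin-1 led the order. Over the 10 libraries Dynlrb1, a roadblock-type dynein light chain, averaged 625 CPM per kb, Dynll1 320, the kinesin light chain Klc1 289 and the dynein light chain Dynlt3 236. The dynein intermediate chains followed at 153 CPM per kb for Dync1i2 and 143 for Dync1i1, then the kinesin heavy chains Kif5a at 115, Kif3a at 109 and Kif1a at 84.7, with the dynein light intermediate chain Dync1li1 at 97.2 between the last 2. Most neighbours in this order overlapped over their 10 libraries. The breaks without overlap fell below Dynlrb1, below Dynlt3, below Kif1b at 61.1 and below Kif2a at 7.83 CPM per kb.

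Transport and mitotic kinesins were far apart in level. The 19 transport genes, the kinesin light chains among them, had a median of 19.9 CPM per kb, from 0.112 to 289, and the 16 dynein genes a median of 27.2. The 11 mitotic kinesins had a median of 0.269 CPM per kb, from 0.0151 for Kif14 to 4.24 for Kif22. Cilia and other kinesins had a median of 0.178, with Kif2b at 0 counts in every library. These levels describe the tissue as a whole, in which dividing cells are few, and were not tested between classes.

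**Figure D2:**
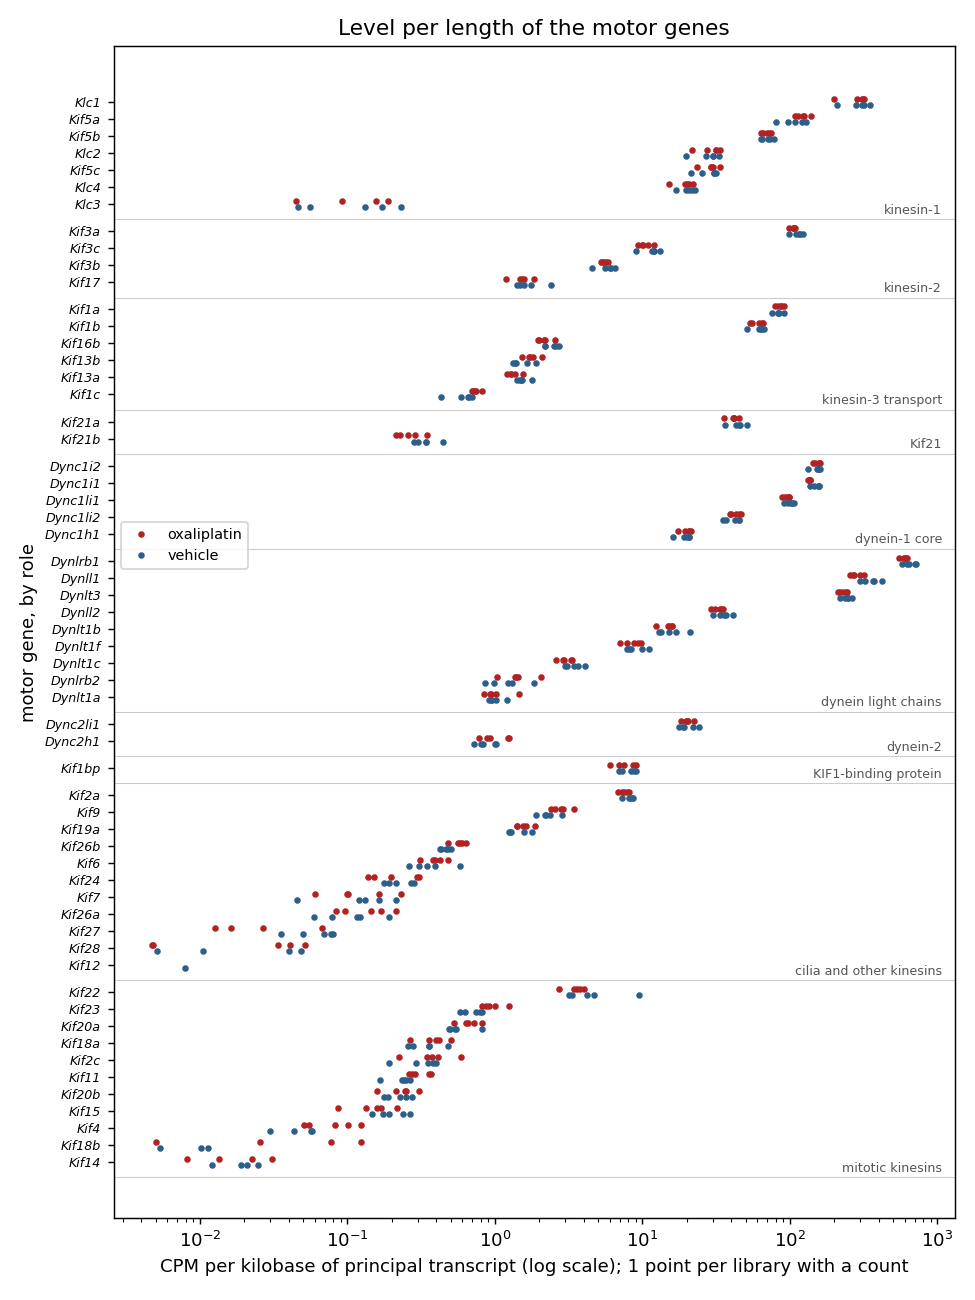
CPM per kb of principal transcript (x axis, log scale) of the motor genes by role, with 1 point for each library that had a count, oxaliplatin above vehicle for each gene. Dynein light chains and kinesin-1 lead with Dynlrb1 at a mean of 625 CPM per kb, where most mitotic kinesins stay below 1.

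Kinesin-1, the main carrier of vesicles and mitochondria, is a pair of Kif5 heavy chains with a pair of Klc light chains. None of its 7 genes was called, and their median fold change was -0.02. Kif5a, the neuronal heavy chain whose variants cause hereditary spastic paraplegia in people, had 879, 685, 776, 789 and 713 CPM after oxaliplatin, against 762, 809, 615, 678 and 505 CPM after vehicle. The groups overlapped, and the lowest value was that of the fifth vehicle library. The fold change was 0.19 (SE 0.12, edgeR adjusted p = 0.465), with a 95% interval from -0.06 to 0.44, and 0.10 without that library. Kif5b, the heavy chain made in most cell types, averaged 417 ± 27.2 CPM after oxaliplatin and 423 ± 36.4 CPM after vehicle (SD, n = 5 each). Its fold change of -0.02 had an interval from -0.16 to 0.12 by edgeR. Kif5c, a second neuron-enriched heavy chain, averaged 199 ± 24.5 CPM after oxaliplatin and 191 ± 30.4 CPM after vehicle, a fold change of 0.06 with SE 0.11.

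The mix of the 3 heavy chains was compared as shares. Per kb, Kif5a made up 55.3% ± 2.96 of the Kif5 level after oxaliplatin, with libraries from 51.3% to 59.5%, and 52.0% ± 2.83 after vehicle, from 47.2% to 53.9% (SD, n = 5 each). Kif5b made up 31.5% after oxaliplatin and 34.4% after vehicle, and Kif5c 13.2% and 13.6%. The ranges of the groups overlapped for each. Klc1 held 85.3% of the light-chain level after oxaliplatin and 85.7% after vehicle.

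Light chains varied more between libraries of a group than between groups. Klc1, the main neuronal light chain, had 708, 794, 498, 790 and 772 CPM after oxaliplatin, against 802, 873, 524, 701 and 768 CPM after vehicle. Library 3 was the lowest of its group in both groups, and the other values overlapped. The fold change was -0.04 (SE 0.16), with an interval by edgeR from -0.40 to 0.32, the widest among the 16 members with at least 100 CPM. Klc2 had 68.7 CPM in oxaliplatin library 3, where the others had 87.5 to 106 CPM, and 62.8 CPM in vehicle library 3, where the others had 85.8 to 105 CPM. Kif5c and Klc4 were also lowest in library 3 of each group. In all, library 3 was lowest in both groups for 4 of the 7 kinesin-1 genes, and for 5 of the 54 motor genes tested, the last being Kif3c of kinesin-2. Library 5 was lowest in both groups for 8 of the 54, none of them in kinesin-1. Genes other than motors shared the library 3 order, such as Dctn1 of dynactin, at 213 CPM after oxaliplatin and 199 CPM after vehicle. The Schwann cell marker Prx did too, at 178 and 157 CPM, while Dctn2 of dynactin did not. The share of all genes with such an order was not counted. These orders were noticed in the values, and their source was not tested. Klc3, a light chain best known from testis, had no more than 22 counts in any library and a fold change of -0.39 with SE 0.67.

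**Figure D3:**
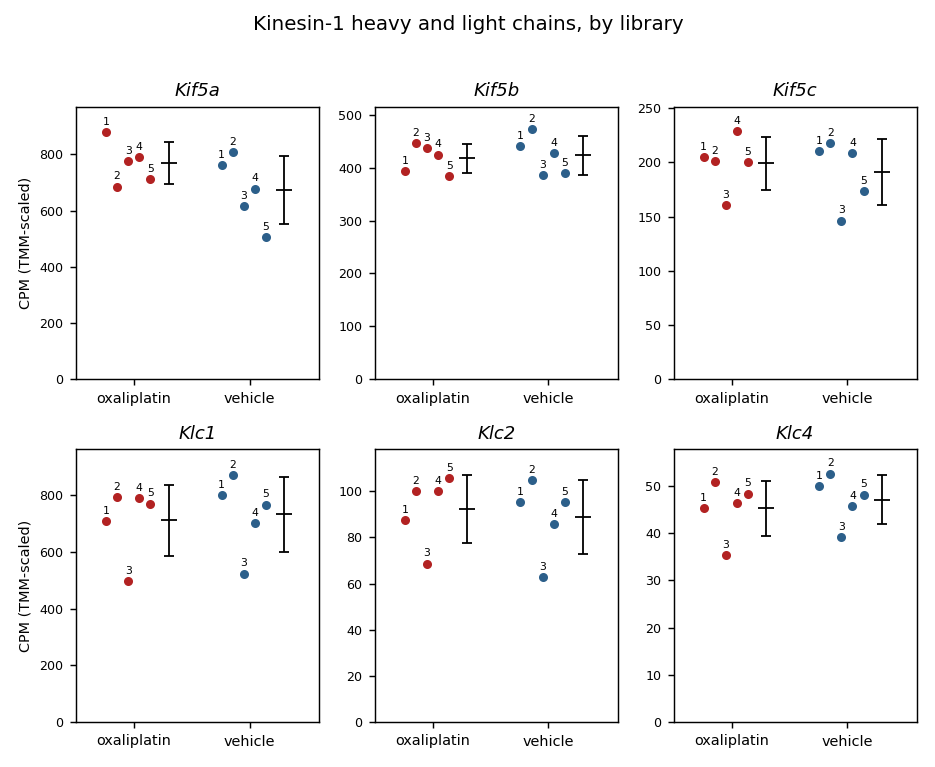
CPM (y axis, from 0) of 6 kinesin-1 genes in each library, oxaliplatin left of vehicle, with points numbered by library and bars for the mean and SD of 5 libraries. The groups overlap in every panel, and library 3 is lowest on both sides for Kif5c, Klc1, Klc2 and Klc4.

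Kinesin-2, which carries late endosomes and synaptic precursors in axons and cargo in cilia, had fold changes below 0 for all 4 of its genes, with a median of -0.12, and none was called. Kif3a, its most abundant heavy chain, had 340, 335, 336, 330 and 311 CPM after oxaliplatin, against 370, 347, 389, 363 and 312 CPM after vehicle. Vehicle library 5 lay within the oxaliplatin range and the other 4 vehicle libraries above it, and the fold change was -0.11 (SE 0.06, edgeR adjusted p = 0.392). Kif3c averaged 71.2 ± 7.0 CPM after oxaliplatin and 78.4 ± 10.4 CPM after vehicle, and Kif3b 31.0 ± 1.41 and 32.5 ± 4.18 CPM (SD, n = 5 each). Kif17, which carries NMDA receptor subunits in mouse brain neurons, averaged 5.26 CPM after oxaliplatin and 5.96 CPM after vehicle.

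Kinesin-3 motors move dense-core vesicles and synaptic vesicle precursors over long distances. Kif1a, the chief of these in axons, had 749, 719, 714, 679 and 653 CPM after oxaliplatin, against 753, 696, 681, 684 and 623 CPM after vehicle. The groups overlapped over almost their whole range. The fold change of 0.03 (SE 0.06) had an interval by edgeR from -0.09 to 0.15. Kif1b, which moves mitochondria and synaptic vesicle precursors, averaged 361 ± 31.9 CPM after oxaliplatin and 371 ± 36.8 CPM after vehicle (SD, n = 5 each). Kif1c, a relative found in many cell types, had 5.48, 4.68, 4.98, 4.72 and 4.91 CPM after oxaliplatin, against 3.96, 2.88, 4.49, 4.68 and 4.38 CPM after vehicle. Its groups did not overlap, but by a gap smaller than the rounding of these values, and its fold change of 0.28 (SE 0.15) did not pass (edgeR adjusted p = 0.358). Kif13a and Kif16b, both carriers of endosomes, had fold changes of -0.20 and -0.16, and Kif13b had 0.21. None passed, with SE between 0.10 and 0.12.

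The Kif21 kinesins, which dampen microtubule growth, stood at 253 ± 20.9 CPM after oxaliplatin and 272 ± 33.4 CPM after vehicle for Kif21a, and at 2.43 ± 0.493 and 3.12 ± 0.563 CPM for Kif21b (SD, n = 5 each). Neither passed, with fold changes of -0.11 and -0.36 (edgeR adjusted p = 0.578 and 0.344). Over all 19 transport kinesin genes, 6 fold changes lay above 0 and 13 below, between -0.39 and 0.28, with a median of -0.06 beside 0.01 for all genes. Their summed CPM ran from 3838 to 4178 after oxaliplatin and from 3595 to 4398 after vehicle.

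Cytoplasmic dynein-1 is a complex of 2 heavy chains with intermediate, light intermediate and light chains. Dync1h1, the heavy chain that holds the motor, had 298, 278, 306, 299 and 251 CPM after oxaliplatin, against 296, 298, 276, 289 and 230 CPM after vehicle. Library 5 was lowest in both groups, and the fold change was 0.04 (SE 0.07, edgeR adjusted p = 0.838).

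The 2 intermediate chains, which link the heavy chains to dynactin, showed unlike values. Dync1i1, the isoform made mainly in neurons, had 351, 346, 356, 358 and 357 CPM after oxaliplatin, against 408, 406, 411, 377 and 356 CPM after vehicle. Vehicle library 5 fell among the oxaliplatin libraries and the other 4 lay above them. The fold change was -0.15 (SE 0.05), with an interval from -0.26 to -0.04, and did not pass (edgeR adjusted p = 0.168). Without vehicle library 5 it was -0.18 (edgeR adjusted p = 0.0774). Dync1i2, the isoform made in most cells, had 423, 392, 417, 412 and 377 CPM after oxaliplatin, against 418, 410, 402, 417 and 347 CPM after vehicle, a fold change of 0.02 (SE 0.06). Dync1i1 made up 47.0% ± 1.25 of the intermediate-chain level per kb after oxaliplatin and 49.9% ± 1.28 after vehicle (SD, n = 5 each). The libraries ran from 45.7% to 49.0% after oxaliplatin and from 47.8% to 51.0% after vehicle, so the groups overlapped. The light intermediate chains Dync1li1 and Dync1li2, which bind cargo adaptors, had fold changes of -0.08 and 0.07.

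Among the light chains, Dynll1 came closest to a call of all motor genes. It encodes the LC8 light chain, a small dimer that also binds many proteins outside dynein. Dynll1 had 520, 649, 604, 553 and 548 CPM after oxaliplatin, against 659, 610, 745, 756 and 851 CPM after vehicle. Oxaliplatin library 2 lay within the vehicle range, and the other 4 lay below every vehicle library. The means were 575 ± 51.6 CPM after oxaliplatin and 724 ± 93.6 CPM after vehicle (SD, n = 5 each). The fold change was -0.33 (SE 0.08), or 1.26-fold lower, with an interval from -0.51 to -0.15 and an edgeR adjusted p of 0.0543. The adjusted p was 0.0139 with DESeq2, 0.0269 with limma voom and 0.0389 with edgeR without the filter on low counts. Leaving out 1 library at a time, edgeR gave adjusted p between 0.0264 and 0.163, and called the gene without oxaliplatin library 2 or without vehicle library 2. Without oxaliplatin library 1 the fold change was -0.30 (edgeR adjusted p = 0.149).

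Neuron markers were read beside Dynll1. The summed CPM of 11 neuron markers ran from 15411 to 16985 after oxaliplatin (median 16197) and from 16658 to 19073 after vehicle (median 17409). That sum is dominated by Tubb3, which averaged 8167 CPM after oxaliplatin and 9412 CPM after vehicle. None of the 11 was called, their median fold change was -0.05 with 4 above 0, and no defining marker was at 0. With the mean log2 CPM of that list as a covariate, the fold change of Dynll1 was -0.18 and its edgeR adjusted p 0.973. In that fit no gene was called higher and 1 lower over the whole table. Without oxaliplatin library 1 and vehicle library 5 together, a choice made after seeing the data, the fold change was -0.23 with an edgeR adjusted p of 0.181. The part of neuronal content in these values was not tested further.

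The other light chains had smaller differences. Dynlrb1 had 378, 417, 427, 405 and 407 CPM after oxaliplatin, against 425, 394, 492, 442 and 486 CPM after vehicle. The groups overlapped through vehicle library 2, and the fold change of -0.14 (SE 0.06) had an edgeR adjusted p of 0.296. Dynlt3, a light chain of the Tctex1 type, averaged 498 CPM after oxaliplatin and 529 CPM after vehicle, a fold change of -0.09. Dynll2, the second LC8 gene, averaged 81.0 CPM after oxaliplatin and 87.8 CPM after vehicle, a fold change of -0.12 (SE 0.08). Dynlrb2, known from cilia, averaged 0.752 CPM after oxaliplatin and 0.640 CPM after vehicle (fold change 0.23, SE 0.30). Dynll1 held 89.6% ± 1.13 of the LC8 level per kb after oxaliplatin and 90.9% ± 1.13 after vehicle (SD, n = 5 each).

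Dynlt1a, Dynlt1b, Dynlt1c and Dynlt1f are near-identical copies of one gene in the mouse, and a related pseudogene row held 115 to 183 counts. Reads may be split among them, so their fold changes of 0.05, -0.10, -0.20 and -0.09 are uncertain. Of the 9 light chains, 2 fold changes lay above 0 and 7 below, with a median of -0.10.

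The summed CPM of all 16 dynein genes was 3051, 3198, 3223, 3140 and 2993 after oxaliplatin, against 3365, 3283, 3493, 3415 and 3333 after vehicle. On this scale the groups did not overlap, with means of 3121 ± 97.4 CPM after oxaliplatin and 3377 ± 80.3 CPM after vehicle (SD, n = 5 each). As CPM of plain library totals the sums did overlap, with 3017 to 3279 after oxaliplatin and 3272 to 3377 after vehicle. Without Dynll1 they overlapped on both scales, with 2445 to 2618 after oxaliplatin and 2481 to 2747 after vehicle on the scaled one. The sum is dominated by the most abundant members and received no test. Over the genes themselves, 6 fold changes lay above 0 and 10 below, with a median of -0.08.

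Dynein-2, the motor of retrograde transport in cilia, was represented by its heavy chain Dync2h1 and its light intermediate chain Dync2li1. Dync2h1 averaged 14.5 ± 3.04 CPM after oxaliplatin and 12.5 ± 1.86 CPM after vehicle, and Dync2li1 27.3 and 27.6 CPM. Neither passed, with fold changes of 0.21 (SE 0.14) and -0.02 (SE 0.09).

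**Figure D4:**
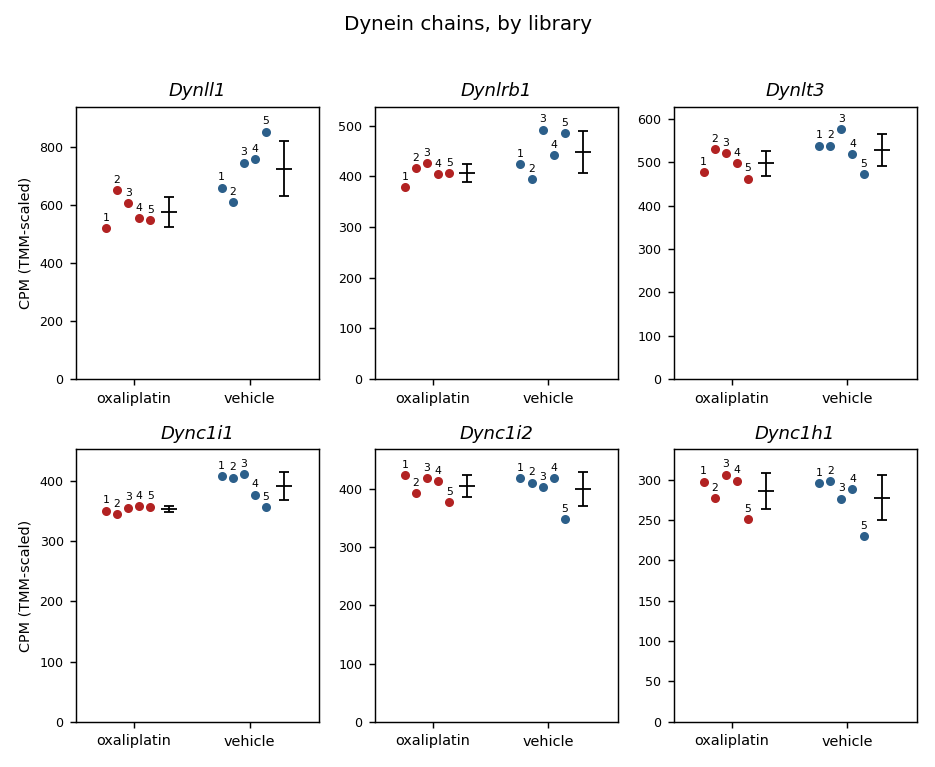
CPM (y axis, from 0) of 6 dynein genes in each library, oxaliplatin left of vehicle, with points numbered by library and bars for the mean and SD of 5 libraries. Dynll1 shows 4 of 5 oxaliplatin libraries below every vehicle library, where Dync1h1 and Dync1i2 overlap throughout.

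Mitotic kinesins are switched on in late cell cycle through promoter elements named the cell-cycle genes homology region (CHR) and the CCAAT box. RefSeq promoter windows of the GRCm38.p6 build, running from 250 bases before to 50 bases after the start site, were found for 45 of the 59 motor genes, among them 10 of the 11 mitotic kinesins, 14 of the 19 transport kinesins and 11 of the 16 dynein genes. The 4 windows below show 3 mitotic kinesins, chosen for the highest fold changes among those tested, and Kif1a as a transport kinesin for contrast. Each is read 5′ to 3′ on its gene's strand, and capitals mark matches to the CCAAT box (CCAAT) or the CHR (TTTGAA) on either strand. Kif23 is at chr9:61946750-61947049 on the minus strand, Kif11 at chr19:37376132-37376431 on the plus strand, Kif4 at chrX:100625815-100626114 on the plus strand and Kif1a at chr1:93101825-93102124 on the minus strand.
Kif23: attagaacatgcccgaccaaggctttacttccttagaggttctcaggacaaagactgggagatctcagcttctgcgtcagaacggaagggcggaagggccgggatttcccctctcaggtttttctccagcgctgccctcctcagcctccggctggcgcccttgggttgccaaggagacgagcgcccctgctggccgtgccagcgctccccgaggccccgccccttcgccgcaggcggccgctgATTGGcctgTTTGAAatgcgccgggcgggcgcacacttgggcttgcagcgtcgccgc
Kif11: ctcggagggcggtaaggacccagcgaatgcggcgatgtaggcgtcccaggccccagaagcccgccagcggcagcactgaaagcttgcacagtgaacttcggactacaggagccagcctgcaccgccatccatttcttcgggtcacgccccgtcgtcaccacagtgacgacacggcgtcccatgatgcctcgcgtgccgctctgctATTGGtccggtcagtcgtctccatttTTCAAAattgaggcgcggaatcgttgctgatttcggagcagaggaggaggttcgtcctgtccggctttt
Kif4: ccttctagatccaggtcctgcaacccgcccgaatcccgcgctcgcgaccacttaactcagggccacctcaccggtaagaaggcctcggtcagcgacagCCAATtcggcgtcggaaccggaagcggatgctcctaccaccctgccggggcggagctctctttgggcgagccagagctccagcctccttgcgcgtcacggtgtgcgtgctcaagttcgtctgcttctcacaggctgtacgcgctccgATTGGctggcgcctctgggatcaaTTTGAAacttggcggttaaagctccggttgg
Kif1a: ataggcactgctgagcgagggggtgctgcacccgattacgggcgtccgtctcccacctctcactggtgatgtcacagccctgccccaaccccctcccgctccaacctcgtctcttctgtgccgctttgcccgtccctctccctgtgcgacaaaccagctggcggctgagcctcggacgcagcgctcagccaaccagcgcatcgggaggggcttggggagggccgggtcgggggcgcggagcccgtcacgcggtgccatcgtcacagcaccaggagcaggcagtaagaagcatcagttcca

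The CHR letters lay just around the start site in the 3 mitotic windows, at base 253 for Kif23, base 232 for Kif11 and base 270 for Kif4, counted from the 5′ end of the window. A CCAAT match on the strand opposite the gene's own, seen as ATTGG in the window, preceded each. The Kif1a window held neither. The CHR hexamer TTTGAA, searched on both strands, was in 9 of 10 mitotic windows (90%), in 0 of 14 transport windows and in 0 of 11 dynein windows, where 16.5% of 17491 protein-coding windows held it. Over the whole window Kif18a was the mitotic gene without it. Within the last 70 bases of the window, a stretch chosen after seeing the matches, it was in 7 of 10 mitotic windows and in 2.65% of all windows.

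Other motifs were searched in the same way. CCAAT was in 60% of mitotic, 35.7% of transport and 36.4% of dynein windows, beside 39% of all windows. The GC box GGGCGG was in 60% of mitotic, 85.7% of transport and 81.8% of dynein windows, beside 46.3% of all. E2F-type letters (TTTCCCGC, TTTCGCGC, TTTGCCGC or TTTGGCGC) were in the mitotic windows of Kif15 and Kif18a only, among these 3 classes, and in 2.92% of all windows. The cyclic AMP response element TGACGTCA was in 3 of 14 transport windows, 1 of 10 mitotic windows and 0 of 11 dynein windows, beside 2.34% of all. These are matches of letters and show no binding.

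None of the 9 mitotic kinesins tested was called, against 2.04% of all genes called in either direction. Their median fold change was 0.22, beside -0.06 for transport kinesins and 0.01 for all genes, with 7 above 0 and 2 below. Without oxaliplatin library 5 the mitotic median was 0.07, and with neuron markers as a covariate 0.10. Kif23 is a subunit of centralspindlin, which bundles the microtubules between separating chromosomes. It had 2.79, 3.42, 2.98, 4.25 and 3.09 CPM after oxaliplatin, against 2.79, 2.13, 2.68, 2.53 and 1.96 CPM after vehicle. The groups did not overlap, although the lowest oxaliplatin and the highest vehicle library rounded to the same value. The means were 3.30 ± 0.574 CPM after oxaliplatin and 2.42 ± 0.358 CPM after vehicle (SD, n = 5 each). The fold change of 0.45 (SE 0.17), or 1.37-fold, had an interval from 0.09 to 0.81 and an edgeR adjusted p of 0.190.

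Kif11, the motor that pushes spindle poles apart and that is also found in rodent neurons, had 1.38, 1.71, 1.78, 1.32 and 1.25 CPM after oxaliplatin, against 0.796, 1.16, 1.27, 1.12 and 1.19 CPM after vehicle. Oxaliplatin library 5 lay within the vehicle range and the other 4 above it. The fold change was 0.42 (SE 0.21, edgeR adjusted p = 0.336). Kif4, a chromokinesin that binds mitotic chromosomes, had 14, 24, 16, 38 and 30 counts after oxaliplatin, against 12, 15, 16, 0 and 8 counts after vehicle. Its fold change of 1.14 (SE 0.57) rests on these few reads and had an edgeR adjusted p of 0.335.

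Kif22, the most abundant mitotic kinesin and a chromokinesin, had 5.72, 7.66, 7.93, 8.53 and 7.24 CPM after oxaliplatin, against 8.95, 7.07, 6.71, 9.88 and 20.1 CPM after vehicle. Vehicle library 5 stood far above the rest. The fold change was -0.51 (SE 0.28, edgeR adjusted p = 0.422) with that library and -0.14 without it. Summed over the 11 mitotic kinesins, levels were 16.1 to 22.0 CPM after oxaliplatin and 17.4 to 29.5 CPM after vehicle. Without Kif22 they were 10.4 to 13.5 CPM after oxaliplatin and 9.49 to 11.1 CPM after vehicle, and still overlapped.

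Kif20a, which acts in cytokinesis, averaged 2.47 ± 0.386 CPM after oxaliplatin and 2.12 ± 0.498 CPM after vehicle (SD, n = 5 each), a fold change of 0.22 with SE 0.19. Kif2c, a depolymerase at centromeres, had 0.27 with SE 0.29. Kif18a, which dampens chromosome movements, had 0.17 with SE 0.24, and Kif20b, also of cytokinesis, 0.07 with SE 0.23. Kif15, which works beside Kif11 on the spindle, had -0.41 with SE 0.29, with averages of 0.741 CPM after oxaliplatin and 0.986 CPM after vehicle. The edgeR adjusted p of these 5 lay between 0.520 and 0.924, and their groups overlapped.

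Kif18b and Kif14 had too few reads for the test. Kif18b, a depolymerase of astral microtubules, had 0, 5, 24, 16 and 1 counts after oxaliplatin, against 0, 2, 1, 2 and 0 counts after vehicle. Without the filter its fold change was 2.96 (SE 1.11, edgeR adjusted p = 0.217), and 2 oxaliplatin libraries held most of the reads. Kif14 had 4, 16, 7, 0 and 12 counts after oxaliplatin, against 0, 9, 6, 13 and 10 counts after vehicle.

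**Figure D5:**
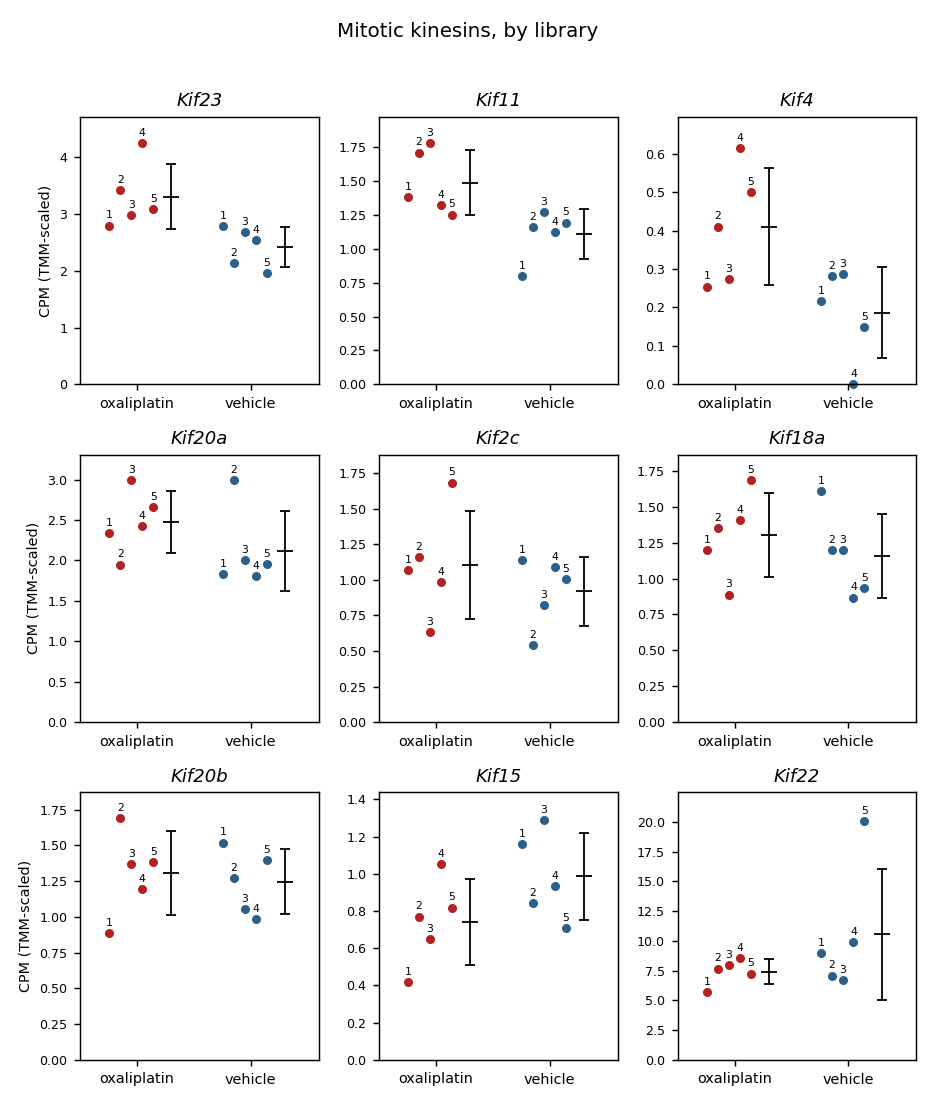
CPM (y axis, from 0) of the 9 mitotic kinesins tested in each library, oxaliplatin left of vehicle, with points numbered by library and bars for the mean and SD of 5 libraries. Kif23 shows oxaliplatin values at or above those of vehicle, and vehicle library 5 stands alone at 20.1 CPM for Kif22.

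Markers of dividing cells from outside the motor list were read beside these genes. They include 1 mitotic kinesin that the symbol rule leaves out, Cenpe, with a fold change of 0.11 (SE 0.29). Of 15, 2 rose, where 1.27% of all genes tested were called higher. Fold changes lay above 0 for 12 of the 15, with a median of 0.55. Over all genes tested, 9391 of 18401 lay above 0, with a median of 0.01. Top2a, the topoisomerase of condensing chromosomes, averaged 1.75 CPM after oxaliplatin and 0.557 CPM after vehicle (fold change 1.64, SE 0.39, edgeR adjusted p = 0.0431). Bub1b, a kinase of the spindle checkpoint, averaged 3.87 and 1.85 CPM (1.07, SE 0.24, edgeR adjusted p = 0.0293). Their calls were kept in 2 of 10 and 5 of 10 fits that left out 1 library. Top2a was also not called with limma voom or with the replicate number as a block. Neither gene was called with neuron markers as a covariate, but that fit called no gene higher over the whole table. The summed CPM of the 15 ran from 22.0 to 40.1 after oxaliplatin and from 19.4 to 26.7 after vehicle, so the groups overlapped. Whether the number of dividing cells moved the mitotic kinesins was not tested.

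Of the kinesins in cilia and other structures, 9 of 12 were tested and none was called, with a median of 0.07. Kif2a, a depolymerase that restrains axon branches in mice, averaged 39.8 ± 2.69 CPM after oxaliplatin and 43.2 ± 2.93 CPM after vehicle (SD, n = 5 each), a fold change of -0.12 (SE 0.07). Kif26b, a kinesin-like protein of developing kidney in mice, averaged 7.83 ± 0.791 CPM after oxaliplatin and 6.34 ± 0.492 CPM after vehicle, with a fold change of 0.30 (SE 0.11, edgeR adjusted p = 0.187). Kif9, a kinesin of motile cilia, averaged 7.65 and 6.24 CPM, with 0.29 (SE 0.13, edgeR adjusted p = 0.286). Kif27 had 0, 8, 20, 4 and 5 counts after oxaliplatin, against 10, 21, 23, 15 and 19 counts after vehicle, with -1.33 (SE 0.62, edgeR adjusted p = 0.300). Of 6 motile-cilia markers, 5 were tested and 1, the regulator Foxj1, fell, at -0.76 (SE 0.17, edgeR adjusted p = 0.0322). Kif28 had no more than 10 counts in a library, Kif12 had 1 count in 1 vehicle library, and Kif2b had none. The remaining Kif6, Kif7, Kif19a, Kif24 and Kif26a had fold changes between -0.06 and 0.32, and Kif1bp one of -0.09 (SE 0.11).

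Partners of the motors were read from the same fit. None of 20 genes of dynactin and of dynein regulators was called, with a median of 0.02, and none of 19 kinesin partners and cargo adaptors, with a median of 0.01. None of the 4 minus-end kinesins of the Kifc group was called. Among 16 microtubule-associated proteins 1 fell, the stabilising protein gene Map6, at 44.9 CPM after oxaliplatin and 58.1 CPM after vehicle (fold change -0.37, SE 0.08, edgeR adjusted p = 0.0289). That call was kept in 4 of the 10 fits without 1 library, with adjusted p up to 0.0972. The neurofilament genes Nefl, Nefm and Nefh, whose proteins are carried down axons as slow cargo, fell by 0.51, 0.58 and 0.63 on the log2 scale (edgeR adjusted p = 0.00215, 0.00557 and 0.0400). The calls of Nefl and Nefm were kept in 10 of 10 fits without 1 library and that of Nefh in 3 of 10, with adjusted p up to 0.0924, and Nefh was not called without the filter on low counts. With neuron markers as a covariate Map6, Nefl, Nefm and Nefh were not called (edgeR adjusted p = 0.705 for Nefl and 0.870 for Nefm). That fit called no gene higher and 1 lower over the whole table. The fourth gene of the list, Ina, had -0.10 (SE 0.07, edgeR adjusted p = 0.527). No motor gene of the transport or dynein lists fell by the same test, and the difference between motor and neurofilament genes was not tested.

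Markers of other cells gave the following counts. Of 8 endothelial and pericyte markers 3 rose (Pecam1, Cdh5 and Kcnj8), of 7 fibroblast markers 1 rose (Pdgfra), and of 7 satellite glia markers 1 rose (Glul) and 1 fell (Fabp7). Of 10 macrophage markers 1 fell (Cx3cr1), and of 8 nuclear-retained RNAs 2 rose (Neat1 and Meg3). Over all genes 1.27% were called higher and 0.772% lower. Called or not, fold changes lay above 0 for 8 of 8 endothelial and pericyte, 3 of 7 fibroblast and 3 of 7 satellite glia markers. They did so for 3 of 10 macrophage markers and 7 of 8 nuclear-retained RNAs. None was called among 8 Schwann cell, 7 skeletal muscle and 5 red blood cell markers, or among the 5 of 7 adipocyte and 3 of 6 B-cell markers that were tested. Their fold changes were 1-sided all the same. They lay above 0 for 7 of 8 Schwann cell, 1 of 7 skeletal muscle and 0 of 5 red blood cell markers. Of those tested, 5 of 5 adipocyte and 0 of 3 B-cell markers lay above 0. The part of these markers in the motor genes' values was not tested.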

How the data were processed

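RNA-seq of mouse dorsal root ganglia comprised 5 oxaliplatin and 5 vehicle libraries, assigned to groups from the labels. Per the labels' protocols a SMARTer kit was used. The sources used here do not state strandedness, genome build, annotation or counter, so genes that overlap on opposite strands are uncertain. STAR 2.5.1a is named in the submitters' processing notes along with Partek and DESeq2, without their roles. The deposited table holds raw counts per Ensembl gene. Of its 40757 rows, 276 repeated rows of 167 identifiers were dropped, leaving 40481, and 26 symbols stored as dates were restored. Replicates differed by more than sampling noise.

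Counts were tested with edgeR 4.0.16 (R 4.3.3; TMM factors, filterByExpr, robust quasi-likelihood F test, Benjamini-Hochberg adjustment over 18401 genes, threshold 0.05). SE is the fold change divided by the square root of F, and 95% intervals use the gene's degrees of freedom. CPM are on TMM-scaled library sizes. The test was checked on simulated counts. Alternatives were RLE factors, plain library totals, no or a stricter filter (1 CPM in 5 libraries), DESeq2 1.42.0 and limma 3.58.1 voom with library quality weights. Further ones were a replicate block, neuron markers as a covariate, a threshold of 0.1 and leaving out each library. Transcript lengths came from GENCODE M21, matched by identifier for 59 of 59 members. Intervals on weakly expressed genes reflect few reads.

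Members, role lists and marker lists were chosen with earlier results of these data known. Named genes were, in each role list, the 3 with the highest mean CPM and the 2 with the smallest p, every mitotic kinesin tested, and called members of the marker lists; further members were named to account for the family.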

Additional observations from a re-analysis of the deposited data

Results flagged for a closer look

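In groups of 5 libraries, a value was picked out when its gap to the nearest other exceeded 0.71 of the group's range (Dixon's criterion at 95%). Of 108 groups of motor genes examined, 4 met it, where chance picks about 1 group in 20. Klc1 stood at 498 CPM in oxaliplatin library 3, below the other 4 at 708 to 794 CPM. Dync1i2 stood at 347 CPM in vehicle library 5, below the other 4 at 402 to 418 CPM. Kif22 stood at 20.1 CPM in vehicle library 5, above the other 4 at 6.71 to 9.88 CPM. Kif20a stood at 2.99 CPM in vehicle library 2, above the other 4 at 1.80 to 2.0 CPM. Vehicle library 5 was also the lowest vehicle library for 18 of the 54 motor genes tested, among them 4 of the 5 core subunits of dynein-1. For 6 of the 54 it was the highest. Outside the motor genes it was lowest for the neuron markers Snap25 (2243 CPM) and Avil (1381 CPM) and highest for Tubb3 (10220 CPM). Its share over all genes was not counted.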

How the results depend on the processing

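No kinesin was called under any alternative run, and no motor gene was called as higher. The count of lower motor genes, all of it dynein, went to 1 (Dynll1) without the filter, with DESeq2, with limma voom and at an adjusted p below 0.1, and was 0 to 1 over the fits without 1 library. Over all genes, 521 were higher and 406 lower with DESeq2, 439 and 365 with limma voom, 0 and 1 with neuron markers as covariate, 142 and 76 without oxaliplatin 1 and vehicle 5 together, 424 and 304 at an adjusted p below 0.1, and 79 to 343 and 34 to 251 without 1 library. The libraries that moved a count by over 1.5 times were oxaliplatin 1 (147 higher and 74 lower without it), 2 (343 and 251), 4 (79 and 34) and 5 (80 and 38), and vehicle 1 (117 and 77), 4 (82 and 41) and 5 (198 and 88). Library totals without a composition factor gave 303 and 99. The median of transport kinesins stayed between -0.11 and -0.02, and that of mitotic kinesins between 0.07 (without oxaliplatin 5) and 0.26.

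Of 1070 values of single genes under alternatives, 54 changed sign, in 23 genes that were never called (lowest adjusted p among those values 0.775); the cause was not tested. With limma voom, Dync1i2 was -0.0066 and Dync2li1 0.027. With plain library totals, Dync2li1 was 0.017 and Kif5b 0.013. With neuron markers as covariate, Kif7 was 1.15, Dynll2 0.15, Dynlt1f 0.019, Dync1li2 -0.016, Dync2li1 0.090, Klc2 -0.25, Kif5c -0.096, Klc3 0.75, Kif3a 0.021, Kif1b 0.047, Kif13b -0.096, Kif20a -0.30 and Kif20b -0.15. Without oxaliplatin 1 and vehicle 5 together, Kif6 was -0.023, Dynlt1b 0.078, Dync1i2 -0.043, Dync1li2 -0.0091, Dync1h1 -0.031, Dync2li1 0.016 and Kif1a -0.025. Over the fits without 1 library the ranges were -0.038 to 0.28 for Kif6, -0.21 to 0.069 for Kif24, -0.35 to 0.19 for Kif7, -0.16 to 0.022 for Dynlt1b, -0.11 to 0.12 for Dynlt1a, -0.026 to 0.044 for Dync1i2, -0.016 to 0.088 for Dync1h1, -0.064 to 0.055 for Dync2li1, -0.14 to 0.062 for Klc1, -0.048 to 0.026 for Kif5b, -0.040 to 0.15 for Klc2, -0.018 to 0.13 for Kif5c, -0.11 to 0.017 for Klc4, -0.00062 to 0.067 for Kif1a, -0.097 to 0.0022 for Kif1b and -0.042 to 0.18 for Kif20b.

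With the replicate number as a block, 382 genes were higher and 278 lower, and no motor gene was called (Dynll1 adjusted p 0.0845). The labels do not say whether the numbers pair the samples. Correlations of same-numbered libraries ran from -0.04 to 0.21, with 2 of 5 above 0.1. In each group 3 of 5 libraries correlated best with their own number, and pairing was not tested further. Under the block the SE of Klc1 was 0.05, in place of 0.16.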
